A study of Mus musculus with 22 samples.

Results

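Transcripts of mouse embryonic stem (ES) cells that received a deacetylase inhibitor were set directly against those of ES cells that received an acetyltransferase inhibitor. The arms were the 2 libraries labelled Valproate and the 4 libraries labelled CPTH2 or Garcinol, which makes 6 of the 22 libraries of the series. All were of the E14 line, and the labels name no genetic change, dose, exposure time or solvent for any of them. The pooled inhibitor arm held 2 CPTH2 and 2 Garcinol libraries, and each replicate number (1 or 2 in the titles) gave 1 library to each compound. The 2 libraries labelled NC, whose label names no compound, were left out of the test and are shown only to place the arms. Libraries were made from oligo-dT selected RNA, and whether those of a group came from separate cultures was not stated. The p-values measure the spread between libraries of the same compound over all 20 compound libraries of the series, without NC. That spread may be technical.

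Acetyl groups on histone lysines are added by acetyltransferases, removed by deacetylases and read by proteins with a bromodomain. The balance between adding and removing the mark sets how much of it lies at promoters and enhancers, where it accompanies transcription. Valproate is a short branched fatty acid, used against epilepsy, that inhibits class I deacetylases. CPTH2 is a thiazole hydrazone described as an inhibitor of the acetyltransferase Gcn5 (Kat2a in mouse), and Garcinol is a benzophenone from the rind of Garcinia fruit that inhibits p300 and PCAF. The comparison therefore asks which transcripts differ between ES cells given compounds that act on opposite sides of this balance.

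Between the arms 1756 of 17253 tested genes (10.2%) differed by over 2-fold, of which 944 (5.47%) were higher and 812 (4.71%) lower with Valproate. The rises included the neurokinin receptor gene Tacr3, the netrin receptor gene Dcc, the DNA methylation cofactor gene Dnmt3l, the testis gene Brdt and 10 of 19 tested homeobox genes of the X-linked Rhox cluster. The falls included the ETS factor gene Etv4, the growth factor gene Fgf17, the adhesion genes Kirrel2 and Nphs1 and the muscle enzyme genes Cox6a2 and Cpt1b. Genes were called with limma on log2(value + 1) at a Benjamini-Hochberg adjusted p under 0.05 over all tested genes and a log2 difference beyond 1. In such bulk samples fewer cells of a kind and less RNA per cell cannot be told apart. Differences on this scale understate the change of genes with low values. The median difference over all tested genes was -0.031 (log2). Of the calls, 131 rises and 50 falls went beyond 8-fold. All 1756 called genes had the same sign within number 1 as within number 2, and 1317 of them passed a log2 difference of 1 within each. This agreement largely follows from the selection, since calls were made on the mean of these 2 differences, and it gives the calls no separate support. Over all tested genes the differences within the 2 numbers had a Pearson correlation of 0.427, a description across genes, which are not independent replicates. Without Valproate replicate 1 the calls fell to 1309 (637 rises and 672 falls), and without the replicate block they fell to 1259.

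**Figure D1:**
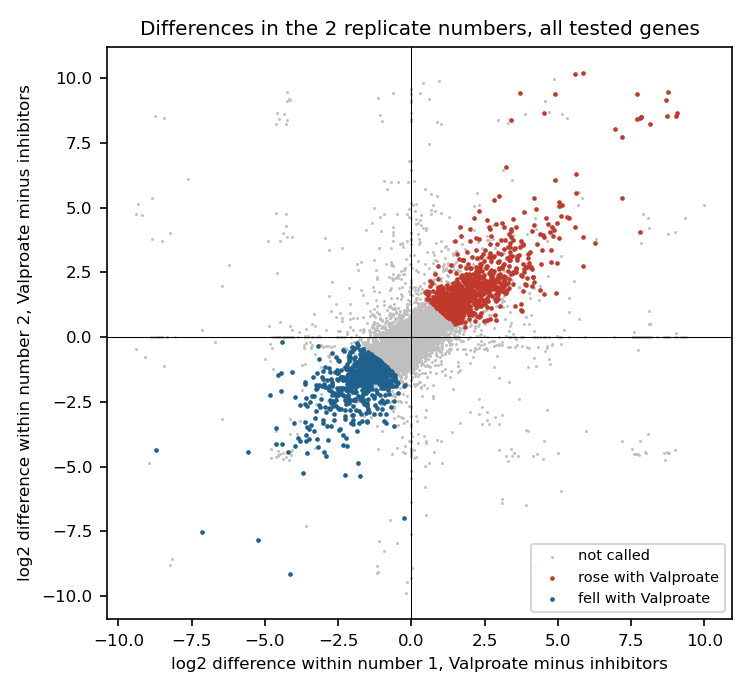
Each point is a tested gene, with the log2 difference between Valproate and the mean of CPTH2 and Garcinol within replicate number 1 (horizontal) and within number 2 (vertical). Genes that rose (red, 944) and fell (blue, 812) lie in the quadrants where both numbers share a sign. This placing largely follows from the selection, since calls were made on the mean of the 2 differences. Grey points are the genes that were not called.

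The libraries were of ES cells by their markers. The 10 ES cell markers were above 0 in all 8 libraries, with summed values of 235292 and 240179 with Valproate and 207284 to 225982 in the inhibitor arm. Fibroblast markers summed to 1616 and 1478 with Valproate, 107 to 1217 in the inhibitor libraries and 749 and 1477 in NC, with Dcn listed at 0 in all of these libraries. Values of Postn, Col3a1 and Lum ranged from 0 or 2 up to 658, 722 and 346 among these 6 libraries, and their part in the results was not tested. Normalization gave each library the same median value of 409, so their depth is unknown. Across genes, inhibitor libraries correlated with Valproate libraries of the same number at 0.909 to 0.921, and CPTH2 with Garcinol libraries of the same number at 0.944 and 0.946. Genes listed at 0 numbered 1065 and 1110 with Valproate and 1303 to 1383 in the inhibitor libraries.

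The genes with the largest rises, chosen among calls with both Valproate libraries above all 4 inhibitor libraries, were led by Tacr3, Scml1 and Dcc. The transcript of Tacr3, the neurokinin B receptor (chromosome 3, 134829007 to 134934579, plus strand), had values of 299 and 796 with Valproate. It had 2 and 2 with CPTH2, 1 and 2 with Garcinol and 2 and 2 in NC. Among the libraries shown here, the gene was thus near the bottom of the scale in all except those of Valproate (log2 difference 7.49, SE 1.89, adjusted p = 0.0101 by limma). Dcc, a netrin receptor that guides axons, had 317 and 622 with Valproate against 6 and 8 with CPTH2, 5 and 6 with Garcinol and 7 and 7 in NC (5.96, SE 1.37, adjusted p = 0.00619 by limma). Scml1, named for a Polycomb-group protein and annotated as a long noncoding RNA, had 290 and 428 with Valproate and 1 in each of the other 6 libraries. Its log2 difference was 7.46 (SE 2.49, adjusted p = 0.0371 by limma). The SEs draw on the spread of all 20 compound libraries. When only the 6 libraries compared were fitted, with the inhibitors as 1 arm, Tacr3, Dcc and Scml1 had adjusted p-values of 0.00286, 0.00257 and 0.00151 by limma. These 3 calls were not held under every alternative: leaving out Valproate replicate 1 gave Tacr3 an adjusted p of 0.0939 by limma, leaving out Valproate replicate 2 gave Dcc 0.0729, and Scml1 lost its call without any 1 of the 6 libraries (0.0649 to 0.178) and without the replicate block (0.0604).

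Of the other large rises, 4 were of genes known from the germ line or early embryo. Dnmt3l, the catalytically inactive partner of the de novo DNA methyltransferases (chromosome 10, 78041947 to 78063622, plus strand), had 442 and 536 with Valproate. Its values were 4 and 15 with CPTH2, 16 and 49 with Garcinol and 9 and 40 in NC, so the inhibitor libraries varied among themselves and stayed far below. The log2 difference was 4.92 (SE 0.54, adjusted p = 5.61e-05 by limma), or 5.77 against CPTH2 and 4.06 against Garcinol. Dppa3, a maternal factor that shields DNA methylation in the early embryo, had 3544 and 2894 with Valproate against 347 and 148 with CPTH2, 318 and 188 with Garcinol and 194 and 160 in NC (3.76, SE 0.30, adjusted p = 7.68e-06 by limma). Within each compound of the inhibitor arm the number 1 library was the higher, and the arms did not overlap. Brdt, the bromodomain reader of the testis, had 450 and 507 with Valproate, 19 and 74 with CPTH2, 13 and 32 with Garcinol and 44 and 44 in NC. Nlrp4c, an oocyte member of the NLR family, had 949 and 753 with Valproate and 55 to 79 in the 4 inhibitor libraries. Their log2 differences were 4.05 and 3.67.

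Of 4 tested ferritin heavy chain-like genes of the X chromosome, 3 rose, beside 5.47% of all tested genes. The family was chosen after its values were seen, and its members are close copies, so they are not independent counts. Fthl17c (8975710 to 8976559, minus strand) had 1135 and 778 with Valproate, 42 and 55 with CPTH2, 36 and 46 with Garcinol and 83 and 63 in NC. Fthl17d (8985900 to 8986755, minus strand) had 688 and 313, then 18 and 22, 22 and 20, and 40 and 27 in the same order. Both had NC values slightly above all 4 inhibitor libraries and far below Valproate. Their log2 differences were 4.38 (SE 0.26, adjusted p = 1.2e-06 by limma) and 4.44 (SE 0.44, adjusted p = 2.92e-05). Fthl17f also rose (154 and 98 against 11 to 20, log2 difference 2.92), and Fthl17a had 25 and 24 with Valproate but 0 to 22 in the inhibitor libraries and was not called. Of the 31-base stretches of the Fthl17c and Fthl17d transcripts, 86.8% and 94.4% occur in transcripts of other genes, so reads may have been split between copies and the single values are uncertain.

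Genes of the cell surface, matrix and cytoskeleton completed the list. Thy1, a surface glycoprotein anchored by a lipid, had 358 and 303 with Valproate, 10 and 16 with CPTH2, 16 and 18 with Garcinol and 12 and 11 in NC (4.40, SE 0.35, adjusted p = 7.16e-06 by limma). Fbln2, the matrix protein fibulin 2, had 728 and 551 against 42 and 34, 27 and 33, and 26 and 41 (4.20, SE 0.26). Both genes therefore stood apart only in the Valproate libraries among these 8. Otog, which encodes otogelin of the membranes of the inner ear, had 170 and 138 with Valproate, 8 and 8 with CPTH2, 4 and 4 with Garcinol and 5 and 2 in NC (4.52, SE 0.52). Rcsd1, which binds the actin capping protein, had 140 and 413 with Valproate, 11 and 39 with CPTH2, 12 and 38 with Garcinol and 40 and 45 in NC. Number 2 was the higher in each group, and the log2 differences within the numbers were 3.50 and 3.39. Aif1l, an actin-binding protein, had 362 and 289 against 20 to 49 (3.38), and Itih5, a hyaluronan-binding protein, had 131 and 100 against 4 to 17 (3.41). Itih5 lost its call without CPTH2 replicate 1, Garcinol replicate 1 or either Valproate library, with adjusted p-values of 0.0627 to 0.125 by limma.

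**Figure D2:**
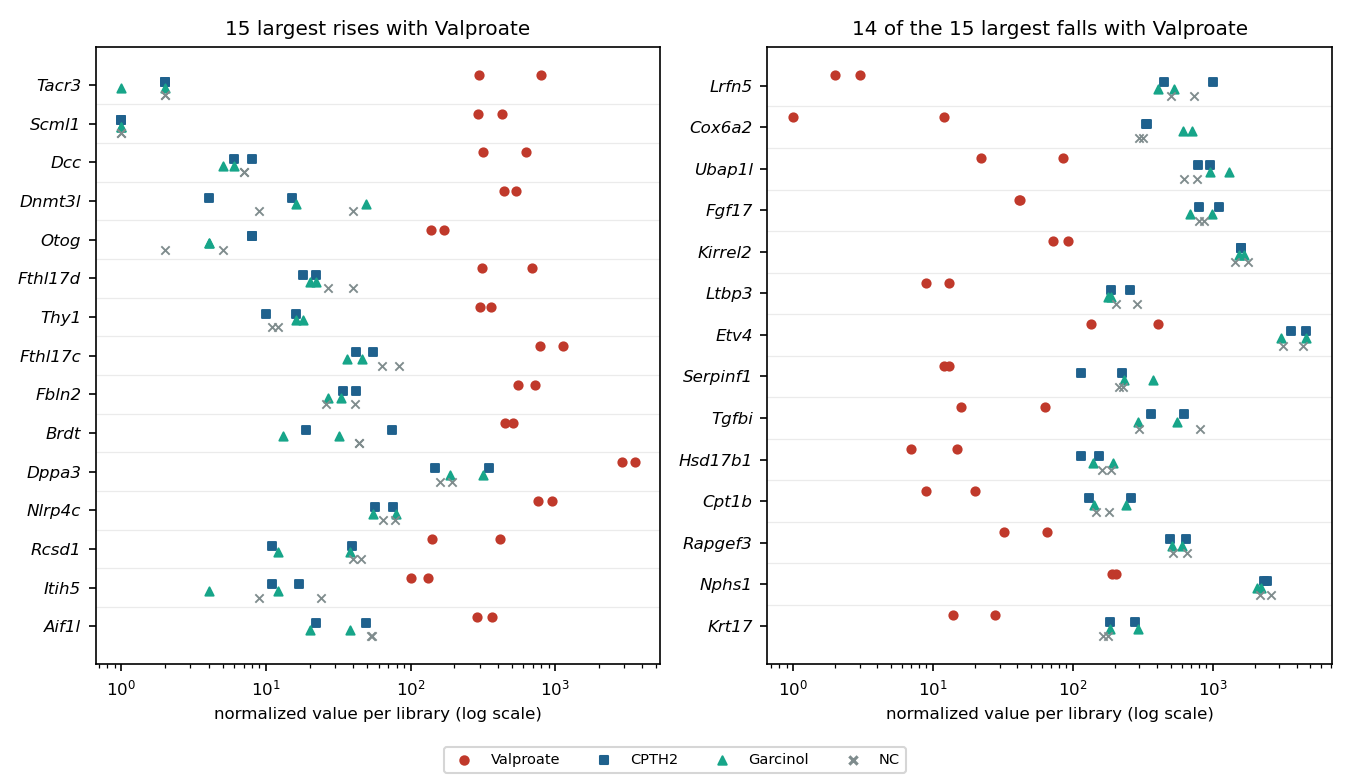
Normalized value in each library (horizontal, log scale) of the 15 genes with the largest rise (left) and 14 of the 15 with the largest fall (right) with Valproate. Both Valproate libraries (circles) lie outside the range of the 4 CPTH2 (squares) and Garcinol (triangles) libraries by the rule that chose the genes, and NC (crosses), which the rule did not use, lies near the inhibitor libraries.

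Among the 15 largest falls, 4 were of genes tied to growth factor signalling. Fgf17, a secreted fibroblast growth factor (chromosome 14, 70636203 to 70642268, minus strand), had 42 and 41 with Valproate, 1111 and 793 with CPTH2, 992 and 690 with Garcinol and 874 and 805 in NC. The Valproate libraries nearly coincided and lay far below every other library shown (log2 difference -4.38, SE 0.20, adjusted p = 2.61e-07 by limma). Etv4, an ETS transcription factor induced by FGF signalling (chromosome 11, 101769742 to 101785371, minus strand), had 134 and 408 with Valproate, 3629 and 4677 with CPTH2, 3106 and 4650 with Garcinol and 3169 and 4442 in NC. Its log2 difference was -4.07 (SE 0.23, adjusted p = 9.07e-07 by limma). Ltbp3, which binds latent TGF-beta, had 13 and 9 against 258 and 188 with CPTH2, 188 and 179 with Garcinol, and 286 and 205 in NC (-4.09). Tgfbi, a matrix protein induced by TGF-beta, had 63 and 16 against 291 to 620 in the inhibitor arm (-3.73).

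A divergent gene pair of the nephrin family fell together. Kirrel2, a nephrin-like adhesion protein (chromosome 7, 30447534 to 30457690, minus strand), had 72 and 93 with Valproate, 1595 and 1595 with CPTH2, 1550 and 1681 with Garcinol and 1798 and 1449 in NC. Nphs1, which encodes nephrin of the kidney filter (30458315 to 30487223, plus strand), had 191 and 205 with Valproate, 2433 and 2334 with CPTH2, 2082 and 2211 with Garcinol and 2608 and 2175 in NC. The annotated starts of the 2 genes lie 625 bases apart on opposite strands, and in both genes the 6 libraries without Valproate were close to each other. Log2 differences were -4.28 (SE 0.30, adjusted p = 3.32e-06 by limma) and -3.51 (SE 0.30, adjusted p = 1.1e-05). Nphs1 overlaps antisense transcripts, and strand was not stated in the sources used here, so reads of the partners cannot be told apart. Lrfn5, a synaptic adhesion protein, had 2 and 3 with Valproate, 448 and 1004 with CPTH2, 404 and 533 with Garcinol and 506 and 741 in NC (-7.33, SE 2.19, adjusted p = 0.0235 by limma). With only the 6 libraries compared in the fit and the inhibitors as 1 arm, Lrfn5 had an adjusted p of 0.00229 by limma. Its adjusted p by limma was 0.05002 to 0.122 without either Valproate library, either CPTH2 library or Garcinol replicate 1.

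Enzymes of metabolism were also among the largest falls. Cox6a2, the muscle form of a cytochrome c oxidase subunit, had 12 and 1 with Valproate, 342 and 335 with CPTH2, 712 and 610 with Garcinol and 317 and 299 in NC. The Garcinol libraries were the highest, and NC lay just below CPTH2 (log2 difference -6.54, SE 0.80, adjusted p = 0.00011 by limma). Cpt1b, the muscle form of the enzyme that passes fatty acids into mitochondria, had 20 and 9 against 130 to 260 (-3.68), but 93.7% of its 31-base stretches occur in other transcripts and it overlaps a gene on its own strand. Hsd17b1, an enzyme of oestradiol synthesis, had 15 and 7 against 115 to 193 (-3.72). Of the remaining falls, Ubap1l had 85 and 22 against 783 to 1300 (-4.46), Rapgef3, an exchange factor switched on by cyclic AMP, 66 and 32 against 497 to 648 (-3.58), and Serpinf1, which encodes the secreted factor PEDF, 13 and 12 against 115 to 373 (-4.02). The keratin gene Krt17 had 28 and 14 with Valproate, 184 to 295 in the inhibitor arm and 178 and 164 in NC (-3.47). Apart from Tacr3, Scml1, Dcc, Itih5 and Lrfn5, the rises and falls given here kept their call under all 14 alternatives.

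Promoters of 2 rises and 2 falls are shown because their calls were lost under no alternative and RefSeq gives them 1 start. Each sequence runs from 250 bases before to 50 bases after the start in GRCm38.p6 (RefSeq), read 5′ to 3′ on the strand of the gene, and capitals mark matches on either strand to the GC box with the letters GGGCGG, the CCAAT box, or the TATA box with the letters TATAAA. The windows are chr7:46240737-46241036 (plus) for Otog, chrX:8986623-8986922 (minus) for Fthl17d, chr9:65360779-65361078 (plus) for Ubap1l and chr7:30457466-30457765 (minus) for Kirrel2.
Otog: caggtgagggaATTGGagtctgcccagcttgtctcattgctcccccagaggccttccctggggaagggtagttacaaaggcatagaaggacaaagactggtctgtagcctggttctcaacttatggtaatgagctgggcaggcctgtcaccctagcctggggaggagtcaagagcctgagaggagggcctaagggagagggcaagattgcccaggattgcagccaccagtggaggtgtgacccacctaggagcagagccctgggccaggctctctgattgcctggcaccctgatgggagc
Fthl17d: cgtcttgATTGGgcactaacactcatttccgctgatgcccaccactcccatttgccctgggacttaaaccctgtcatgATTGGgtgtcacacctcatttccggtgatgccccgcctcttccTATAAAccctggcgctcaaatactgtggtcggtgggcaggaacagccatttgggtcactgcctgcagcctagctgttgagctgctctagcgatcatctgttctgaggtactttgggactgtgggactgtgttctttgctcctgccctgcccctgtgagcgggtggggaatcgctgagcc
Ubap1l: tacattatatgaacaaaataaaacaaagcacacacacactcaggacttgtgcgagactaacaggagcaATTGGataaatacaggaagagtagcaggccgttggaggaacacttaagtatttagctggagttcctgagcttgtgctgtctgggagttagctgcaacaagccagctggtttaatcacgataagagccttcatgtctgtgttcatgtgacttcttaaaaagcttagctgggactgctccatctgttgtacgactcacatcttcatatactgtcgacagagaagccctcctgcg
Kirrel2: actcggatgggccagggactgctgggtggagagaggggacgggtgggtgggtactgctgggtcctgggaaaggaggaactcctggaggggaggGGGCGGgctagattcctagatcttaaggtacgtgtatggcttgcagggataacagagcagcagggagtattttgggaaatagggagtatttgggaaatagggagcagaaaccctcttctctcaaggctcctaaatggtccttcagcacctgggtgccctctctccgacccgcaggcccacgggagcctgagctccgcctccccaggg
The Fthl17d window held a pair of CCAAT boxes and a TATA box, those of Otog and Ubap1l 1 CCAAT box each, and that of Kirrel2 a GC box. RefSeq promoters were at hand for 668 of the 944 rises, 514 of the 812 falls and 11814 tested genes. A GC box was present in 56.9% of the promoters of rises, 47.3% of those of falls and 61% of all, and a CCAAT box in 37.7%, 36.2% and 39.7%. The motif CCGGAAG, bound by ETS factors, was in 6.29% of the promoters of rises, 6.61% of those of falls and 16.4% of all. In the same order the E-box CACGTG was in 7.93%, 9.34% and 9.83%, and the TATA box in 8.53%, 10.1% and 8.21%. The cAMP response element TGACGTCA was in 1.2%, 2.33% and 3.01%. These are descriptions of the windows, the promoters were not matched by level of the gene, and a link to Etv4 was not tested. Motifs were searched on both strands and could overlap.

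The enzymes the compounds are directed at, and their partners, were described by lists. Of 18 histone deacetylases and sirtuins, 1 rose and 1 fell (11.1%, beside 10.2% of all tested genes), with a median log2 difference of 0.10 beside the -0.031 of all tested genes. Hdac11 had 503 and 171 with Valproate, 182 and 114 with CPTH2 and 178 and 101 with Garcinol (1.07). Hdac7, of class IIa, had 418 and 278 with Valproate, 1449 and 591 with CPTH2 and 1125 and 433 with Garcinol (-1.24). Hdac11 overlapped between the arms. In both genes the number 1 library was the higher throughout, and both calls were lost without Valproate replicate 1 (0.60 and -0.93) and without the replicate block. Hdac1 and Hdac2, class I members, had differences of 0.04 (SE 0.09) and 0.10 (SE 0.11) with adjusted p-values of 0.728 and 0.508 by limma, and 62.7% of the 31-base stretches of Hdac1 occur in other transcripts. None of 28 deacetylase complex subunits (median 0.05) and none of 29 tested histone acetyltransferases and subunits (median -0.11) was called. Ep300, which encodes p300, had 4594 and 6729 with Valproate and 4159 to 6466 in the inhibitor arm (0.06, SE 0.17). Kat2a was 4234 and 3998 against 5159 to 5714, a log2 difference of -0.38 (SE 0.06, adjusted p = 0.000607 by limma) that is under the 2-fold limit, and Kat5 was 979 and 921 against 1065 to 1324 (-0.33, SE 0.09, adjusted p = 0.0153). Among 28 bromodomain readers Brdt alone was called (3.57%).

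Genes that are known to rise with deacetylase inhibitors went in both directions. Of 16, 3 rose and 2 fell (31.2% called, beside 10.2% of all tested genes), and the median was -0.01. Gsn, the actin-severing protein gelsolin, had 841 and 473 with Valproate, 76 and 61 with CPTH2, 79 and 46 with Garcinol and 77 and 47 in NC (3.28, SE 0.22, adjusted p = 2.82e-06 by limma). The secreted chaperone gene Clu had 261 and 289 against 46 to 59 (2.41), and Hspa2, a testis heat shock protein, 673 and 760 against 306 to 395 (1.02). Tgm2, a transglutaminase, had 1853 and 827 with Valproate, 4930 and 2633 with CPTH2 and 3524 and 1761 with Garcinol (-1.27), and Stmn2, which destabilises microtubules, 2372 and 2214 against 3381 to 5722 (-1.02). Tgm2 overlapped between the arms and lost its call without the replicate block (adjusted p = 0.141 by limma) and without Valproate replicate 2 (0.0544). Hspa2 and Stmn2 lie near the 2-fold limit, where leaving out 1 library was enough to lose the call (Hspa2 0.97 without Garcinol replicate 1, Stmn2 -0.78 without Valproate replicate 2). Cdkn1a, the inhibitor of cyclin-dependent kinases known as p21, had 8038 and 7963 with Valproate, 5869 and 5545 with CPTH2, 6168 and 5800 with Garcinol and 6054 and 5364 in NC. The arms did not overlap, with a log2 difference of 0.45 (SE 0.06, adjusted p = 0.000263 by limma), under the 2-fold limit. H1f0, the linker histone gene often raised in arrested cells, had 1508 and 2710 with Valproate and 2141 to 2813 in the inhibitor arm, with a log2 difference of -0.24 (SE 0.17, adjusted p = 0.287 by limma).

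**Figure D3:**
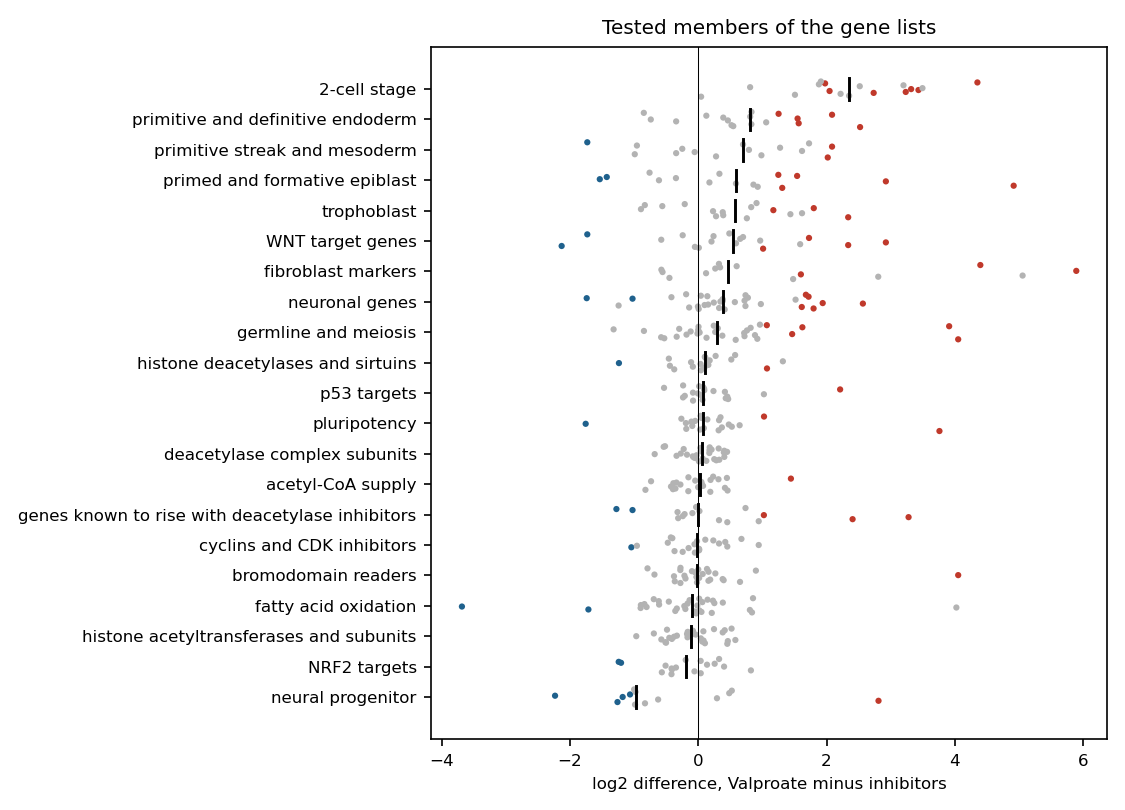
Log2 difference between Valproate and the inhibitor arm (horizontal) for the tested members of 21 gene lists, sorted by the list's median (black bar), with genes that rose in red, that fell in blue and that were not called in grey. The 2-cell stage list has the highest median (2.35) and the neural progenitor list the lowest (-0.98).

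The core pluripotency factors differed little. Pou5f1 (Oct4) had 25663 and 27731 with Valproate and 26685 to 30833 in the inhibitor arm (-0.09, SE 0.08), and Nanog 49312 and 75957 against 31970 to 59405 (0.48, SE 0.19, adjusted p = 0.0763 by limma), with number 2 the higher throughout. Sox2 had 17988 and 16436 against 11521 to 15374, a difference of 0.33 (SE 0.09, adjusted p = 0.0193 by limma) under the 2-fold limit. Of 22 pluripotency genes, Dppa3 and Utf1 rose and Nr0b1 fell (13.6% called, beside 10.2% of all tested genes, median 0.07). Utf1, a chromatin-bound factor of ES cells, had 3558 and 3309 against 1597 to 1832 (1.03), and Nr0b1, the orphan receptor Dax1, 1446 and 1325 with Valproate, 4265 and 4325 with CPTH2 and 4578 and 5628 with Garcinol (-1.75, SE 0.15, adjusted p = 1.15e-05 by limma). Of 15 genes of the formative and primed epiblast, the states that follow naive pluripotency, 5 rose and 2 fell (46.7% called, median 0.59). Beside Dnmt3l, Lef1, a nuclear effector of WNT signalling, had 350 and 194 with Valproate, 26 and 29 with CPTH2, 46 and 36 with Garcinol and 29 and 42 in NC (2.92, SE 0.32, adjusted p = 5.16e-05 by limma). Pou3f1, Dnmt3a and Sox3 rose (1.54, 1.31 and 1.25), but without the replicate block their adjusted p-values by limma were 0.123, 0.127 and 0.183. Pou3f1 also lost its call without Valproate replicate 1 (1.02), as did Dnmt3a (0.93), and Sox3 without Valproate replicate 2 (1.13). Lefty2, an antagonist of Nodal, had 869 and 808 against 2274 to 2761 (-1.53), and Otx2, a homeobox factor of the epiblast and forebrain, 82 and 206 against 254 to 478 (-1.42). The last of these has a gene on its own strand and an antisense partner, and without Valproate replicate 1 its difference was -0.50, while Lefty2 had an adjusted p of 0.0548 by limma without that library.

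Markers of later lineages went in both directions. Of 17 endoderm genes 5 rose and none fell (29.4% called, beside 10.2% of all tested genes, median 0.81). Many genes of these lists had low values, and of all tested genes with an NC mean from 10 to 100, 13.1% rose and 9.3% fell. The growth factor receptor gene Pdgfra, a marker of primitive endoderm, had 88 and 78 with Valproate, 21 and 17 with CPTH2 and 15 and 23 with Garcinol (2.09, SE 0.33), while Sox17 had 54 and 92 against 21 to 38 (1.25). Amn (2.52), Dab2 (1.57) and Hnf4a (1.55) also rose, with no Valproate value above 132. Gata6 (108 and 144 against 50 to 137) and Gata4 (97 and 108 against 104 to 155) were not called. Of 15 primitive streak and mesoderm genes, Pdgfra and Bmp4 (2.02) rose and Wnt3a (-1.73) fell (20% called). Of 16 trophoblast genes 3 rose (Cdx2 2.34, Peg10 1.80, Krt7 1.17) and none fell (18.8% called), and Krt7 overlapped between the arms. Of 13 neural progenitor genes 4 fell and 1 rose (38.5% called), with a median of -0.98. Hes1, a target of Notch signalling, had 863 and 920 with Valproate and 1852 to 2383 in the inhibitor arm (-1.26, SE 0.13, adjusted p = 3.32e-05 by limma), whereas Olig1, Neurod1 and Pax6 (-2.23, -1.18 and -1.06) had values of 116 or less. Id3, an antagonist of helix-loop-helix factors, had 54 and 329 against 5 and 34 with CPTH2, 7 and 80 with Garcinol and 7 and 55 in NC (2.81), with number 2 the higher in each group. Id3 overlapped between the arms, as did Pax6, which lost its call in 8 of 14 alternatives and was at -0.30 (adjusted p = 0.498 by limma) without Valproate replicate 2. Without the replicate block Hnf4a, Sox17, Wnt3a, Krt7, Olig1, Pax6 and Id3 lost their calls. Without Valproate replicate 1 so did Amn, Bmp4, Cdx2, Hnf4a, Sox17, Neurod1 and Krt7 (adjusted p 0.0525 to 0.26 by limma), and without Valproate replicate 2 Hnf4a, Sox17, Wnt3a, Id3, Olig1, Neurod1 and Krt7 (0.0501 to 0.305).

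Of 32 tested neuronal genes 6 rose and 2 fell (25% called, beside 10.2% of all tested genes), with a median of 0.38. Map2, a microtubule protein of dendrites, had 420 and 339 with Valproate and 77 to 118 in the inhibitor arm (1.94, SE 0.16, adjusted p = 9e-06 by limma). Uchl1, an abundant neuronal deubiquitinase, had 2350 and 4562 with Valproate, 654 and 1486 with CPTH2, 726 and 1547 with Garcinol and 698 and 1673 in NC (1.68), so within each number Valproate was the highest. L1cam, Celf4, Syngr3 and Elavl3 rose from lower values (2.57, 1.80, 1.72 and 1.61). Celf4 had 88 and 33 with Valproate, 22 and 7 with CPTH2 and 33 and 9 with Garcinol, so its arms met at 33. The stathmin genes Stmn3 (45 and 47 against 106 to 194, -1.74) and Stmn2 fell. Elavl3 had 70 and 81 with Valproate, 11 and 56 with CPTH2 and 11 and 46 with Garcinol. It lost its call in 6 of 14 alternatives (1.03 without Valproate replicate 1). Without the replicate block Elavl3, Celf4 and Uchl1 lost their calls, with adjusted p-values of 0.219, 0.306 and 0.0585 by limma.

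Some germline and 2-cell stage genes rose, and none of the tested members fell. Of 30 germline and meiosis genes 5 rose (16.7% called, beside 10.2% of all tested genes, median 0.29). Beside Brdt, Rec8, the meiotic cohesin subunit, had 1794 and 1292 with Valproate and 503 to 593 in the inhibitor arm (1.46, SE 0.17, adjusted p = 9.5e-05 by limma), and Tdrd5, a Tudor protein of the germ granule, 173 and 147 against 46 to 56 (1.62). Tex101 had 30 and 39 against 0 to 5, and Tex15 671 and 131 against 72 to 295, which overlap. Tex101 lost its call without Valproate replicate 1 (adjusted p = 0.0509 by limma), and Tex15 in 5 alternatives (0.78 without that library). Of 17 tested 2-cell stage genes 7 rose (41.2% called), the median was 2.35, and with a pseudocount of 10 the median was 1.56. Zscan4d had 56 and 184 with Valproate, 10 and 49 with CPTH2, 19 and 41 with Garcinol and 40 and 47 in NC (1.98, SE 0.55, adjusted p = 0.0162 by limma). Zscan4e had 65 and 175 against 20 and 0 with CPTH2, 0 and 36 with Garcinol, and 47 and 47 in NC. Tmem92 had 19 and 46 against 2 to 5 (2.73), and 4 genes of the Usp17l family had 28 to 151 with Valproate and 0 to 57 in the inhibitor arm. In NC these 4 had 10 to 59. Usp17la had 68 and 115 with Valproate, 0 to 33 in the inhibitor arm and 59 and 48 in NC, so NC lay above the inhibitor arm. The Zscan4 and Usp17l genes are copies, with 31.6% to 95.3% of the 31-base stretches of the called members shared with other genes. Their single values are therefore uncertain. Of the 7 calls Tmem92 alone was kept without the replicate block, and it alone was lost under no alternative. Usp17le lost its call in 8 of 13 alternatives, Usp17la in 7 of 13, Usp17lb in 7 of 14 and Usp17lc in 6 of 14. Zscan4e lost its call in 6 of 13 and Zscan4d in 3 of 14. Zscan4e, Usp17le and Usp17la were also not called in either fit of the 6 libraries (adjusted p 0.0984 to 0.211 by limma).

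The X chromosome had the highest share of rises and the lowest share of falls among the chromosomes. Of 672 tested X-linked genes 67 rose (9.97%) and 15 fell (2.23%), against 3.28% to 7.02% rising and 2.78% to 6.7% falling on the autosomes. Part of this was the Rhox cluster of reproductive homeobox genes, a family chosen after its values were seen. Of its 19 tested members 10 rose (52.6%, beside 5.47% of all tested genes), none fell and the median was 2.03. Rhox5, the founding member, had 4970 and 2710 with Valproate, 281 and 370 with CPTH2, 379 and 459 with Garcinol and 345 and 344 in NC (3.32, SE 0.22, adjusted p = 2.17e-06 by limma). Rhox6 had 949 and 789 against 211 and 71 with CPTH2, 199 and 80 with Garcinol and 162 and 64 in NC (2.79), and Rhox9 1165 and 815 against 98 to 310 (2.37). In both genes number 1 was the higher in each group. Rhox13 had 453 and 766 against 98 to 196 (2.04), and Rhox2a 1028 and 1317 against 283 to 449 (1.75). Rhox1 had 248 and 438 with Valproate and 209 to 384 in the inhibitor arm (0.27) and was not called. Several Rhox genes are close copies, and their single values are uncertain. Calls were also counted by transcript type, beside 4.71% falls and 5.47% rises over all tested genes. Of 460 long intergenic noncoding RNAs 53 fell (11.5%) and 16 rose (3.48%). Of 306 antisense RNAs 30 fell (9.8%) and 7 rose (2.29%). Of 570 transcripts of the annotation class TEC 28 fell (4.91%) and 7 rose (1.23%). Of 14551 protein-coding genes 864 rose (5.94%) and 635 fell (4.36%). The types were not matched by level, and of all tested genes with an NC mean from 10 to 100, 9.3% fell.

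Signalling and metabolic genes were described by lists as well. Of 18 WNT target genes 4 rose and 2 fell (33.3% called, beside 10.2% of all tested genes, median 0.54). Beside Lef1 and Cdx2, the transcription factor gene Sp5 had 2216 and 2141 with Valproate, 592 and 488 with CPTH2 and 828 and 780 with Garcinol (1.73, SE 0.21, adjusted p = 0.000124 by limma). Axin2, a feedback inhibitor of WNT, had 1999 and 1588 against 722 to 1047 (1.01). Cdx1 had 145 and 167 against 290 to 1449 (-2.13) and Wnt3a 4 and 7 against 8 to 50. Axin2 lost its call in 4 alternatives (0.93 without Valproate replicate 2), Wnt3a in 5 and Cdx1 without the replicate block. A list of 25 FGF ligands, receptors, ETS factors and ERK feedback genes was written after the values were seen. Its members went both ways, with 4 rises, 5 falls (36% called) and a median of 0.09. Beside Fgf17 and Etv4, the ERK phosphatase gene Dusp6 had 61 and 67 with Valproate, 220 and 180 with CPTH2 and 288 and 269 with Garcinol (-1.86, SE 0.16, adjusted p = 9.95e-06 by limma), and Spry4, an inhibitor of receptor signalling, 4 and 2 against 24 to 33 (-2.92). Etv1 also fell (-1.16). Fgf15, Ier3, Phlda1 and the receptor gene Fgfr2 rose (1.42, 1.38, 1.16 and 1.04), while Etv5 had 13634 and 15640 against 15640 to 19854 (-0.31). Phlda1 lost its call in 5 alternatives (0.78 without Valproate replicate 1), Fgfr2 in 4 (0.79 without that library) and Fgf15 in 3, among them the fits without either Valproate library. Etv1 overlapped between the arms and lost its call without the replicate block (adjusted p = 0.227 by limma).

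Of 31 genes of sterol and fatty acid synthesis, a list also written after the values were seen, 3 fell and 1 rose (median -0.11). That is 12.9%, beside the 10.2% of all tested genes that were called. Soat2, which esterifies cholesterol in liver and gut, had 35 and 43 with Valproate, 284 and 302 with CPTH2, 434 and 473 with Garcinol and 213 and 280 in NC (-3.20, SE 0.17, adjusted p = 6.37e-07 by limma). Its widely expressed relative Soat1 had 1145 and 476 with Valproate, 409 and 263 with CPTH2 and 354 and 213 with Garcinol (1.30), and without Valproate replicate 1 its difference was 0.83. Msmo1, an enzyme of cholesterol synthesis, had 2834 and 2746 against 5378 to 6044 (-1.05, and -0.99 without Valproate replicate 2). Of 32 fatty acid oxidation genes, Cpt1b and Acot2 (37 and 45 against 97 to 178, -1.71) fell and none rose (6.25% called, under the share of all tested genes). Of 24 genes of acetyl-CoA supply, 1 was called (4.17%, also under that share). This was Slc13a5, a citrate importer, which rose. It had 999 and 875 with Valproate, 339 and 325 with CPTH2, 416 and 301 with Garcinol and 370 and 293 in NC (1.45, SE 0.16, adjusted p = 5.53e-05 by limma).

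Lists of stress and cell cycle genes held 1 or 2 calls each, beside the 10.2% of all tested genes that were called. Of 20 p53 targets (5% called) Pmaip1, which encodes the pro-apoptotic protein Noxa, rose alone, with 635 and 402 with Valproate, 142 and 94 with CPTH2, 121 and 85 with Garcinol and 139 and 107 in NC (2.21, SE 0.21, adjusted p = 2.4e-05 by limma). Of 17 NRF2 targets (11.8%) Srxn1 (379 and 687 against 1021 to 1449, -1.24) and Slc7a11 (72 and 62 against 111 to 204, -1.20), both of which guard against oxidation, fell, and Srxn1 was at -0.98 without Valproate replicate 1. Of 21 cyclins and inhibitors of cyclin-dependent kinases (4.76%) Cdk6 alone was called (377 and 375 against 708 to 837, -1.04), and without Valproate replicate 1 its call was lost (-0.91, adjusted p = 0.0861 by limma). Of 14 tested fibroblast markers (21.4%) Thy1, Col5a1 and Lum rose. Lum had 197 and 331 with Valproate, 346 in CPTH2 replicate 1 and 0 in the other 3 inhibitor libraries, so its arms overlapped. Col5a1 lost its call without the replicate block (adjusted p = 0.0765 by limma), and Lum without either Valproate library and in both fits of 6 libraries (0.0622 to 0.159).

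Levels in NC, which took no part in the test, were used to order the genes. Genes that rose with Valproate had low values in NC (median 56.5, quartiles 19 and 170), and genes that fell had higher ones (median 135, quartiles 50.9 and 511), beside a median of 496 for all tested genes. Of 971 genes with an NC mean under 10, 140 rose (14.4%) and 13 fell (1.34%). Of 3593 genes from 10 to 100, 13.1% rose and 9.3% fell, and of 6381 from 100 to 1000, 4.62% rose and 5.36% fell. Of 6308 genes at 1000 and over, 38 rose (0.602%) and 123 fell (1.95%). Rises were thus the more frequent at low NC levels and falls the more frequent at high levels, a description, since values near 0 can rise but hardly fall.

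**Figure D4:**
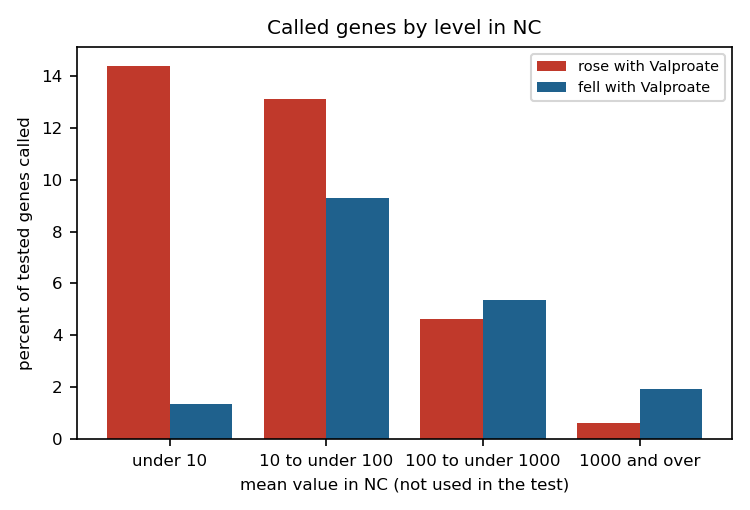
Percentage of tested genes that rose (red) or fell (blue) with Valproate, by the mean value of the gene in NC. The share of rises declines from 14.4% to 0.602% across the 4 classes, while the share of falls peaks at 9.3% between 10 and 100.

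NC was also placed between the arms for each called gene, with 0 at the inhibitor mean and 1 at the Valproate mean. Both NC libraries lay nearer the inhibitor mean for 761 of the 944 rises and 689 of the 812 falls, and nearer the Valproate mean for 28 and 14. For the other 264 genes the NC libraries lay on different sides. The median place was 0.109 for rises and 0.0691 for falls. Of 1628 called genes whose arms did not overlap (898 rises and 730 falls, where 18.6% of all tested genes had both Valproate libraries above and 18.1% below all 4 others), 151 had both NC libraries strictly between the arms. Those with the largest differences, by the rule for named genes, were Cox6a2, Ubap1l, Fthl17d, Fthl17c and Krt17, and in these 5 NC lay close to the inhibitor values. Ubap1l had 778 and 624 in NC, just under the lowest inhibitor value of 783.

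**Figure D5:**
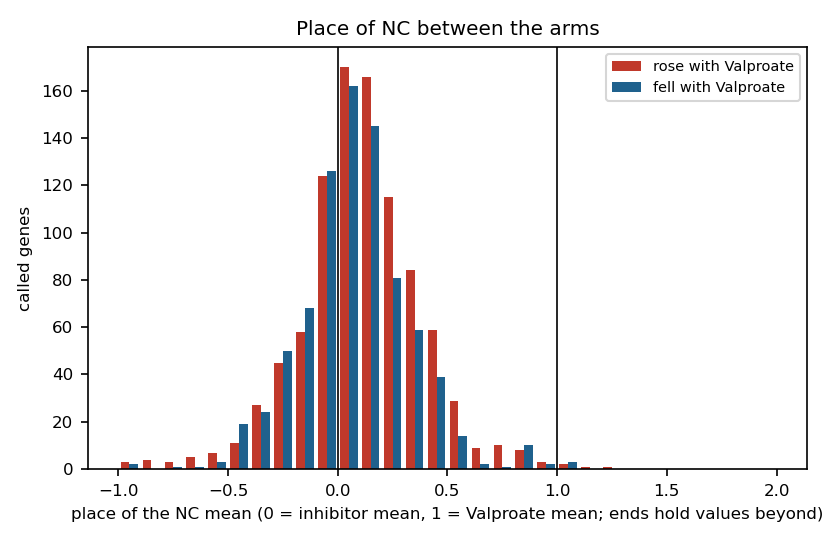
Number of called genes (vertical) by the place of the NC mean on a scale with 0 at the inhibitor mean and 1 at the Valproate mean, for rises (red) and falls (blue), with values beyond the ends put in the end bars. Both distributions peak just above 0, with medians of 0.109 and 0.0691.

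Against each inhibitor on its own the counts were alike. Valproate against CPTH2 gave 1611 calls (9.34% of tested genes), with 838 higher (4.86%) and 773 lower (4.48%) with Valproate, and Valproate against Garcinol 1643 (9.52%), with 877 higher (5.08%) and 766 lower (4.44%). These comparisons share the Valproate libraries, so each is given only by its own values, and without the replicate block they gave 977 and 1034 calls. Among the 15 largest rises and falls, the differences from CPTH2 and from Garcinol were near each other for some genes. They were -4.47 and -4.28 for Fgf17, 4.59 and 4.20 for Thy1 and -4.13 and -4.02 for Etv4. The widest gaps among the 15 largest rises and falls were those of Dnmt3l (5.77 and 4.06) and Cox6a2 (-6.06 and -7.02). Both differences of a gene use the same Valproate libraries, and the genes were chosen on the pooled difference. CPTH2 against Garcinol, tested directly in the same fit, gave 4 calls (0.0232%), 1 higher (0.0058%) and 3 lower (0.0174%) with CPTH2, beside 1229 genes whose p was under 0.05 before adjustment. When only the 6 libraries were fitted there were 20 calls. The acetyltransferase inhibitors shared their replicate numbers but no library, and a count of 4 does not show that they act alike.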

How the data were processed

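Messenger RNA of E14 mouse ES cells was sequenced in 22 libraries, of which 6 were compared. Per the labels, the authors used bcl2fastq, Bowtie2 2.2.5, RSEM and the mm10 build. The deposited values are scores: read counts per gene that the authors brought to one distribution by full-quantile normalization and rounded to whole numbers, which hides depth and any general shift of expression. The compounds are not mentioned in the study's methods. A second table of the authors' group means was not used, and 0 columns lacked a sample.

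Genes that reached 10 in 2 or more of the 20 compound libraries were kept (17253 of 18487). Values were analysed as log2(value + 1) with limma 3.58.1 in R 4.3.3, with 10 compound means, the replicate number as a block, and eBayes with a trend (9 residual degrees of freedom). Differences rest on the 6 libraries, and the other 14 compound libraries gave only the spread. Tests were two-sided. Adjustment was by Benjamini and Hochberg over all tested genes, and calls needed an adjusted p under 0.05 and a difference over 2-fold. Deviations from the group means correlated at 0.218 to 0.23 between same-numbered libraries of different groups, with only 2 numbers.

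Named genes were the 15 largest rises and 15 largest falls among calls whose arms did not overlap, above 0 in the 6 libraries, with the larger arm mean at least 100 and without predicted, clone, Olfr and Vmn genes. To these were added the 5 largest differences with NC between the arms, 10 single genes, the called members of 21 gene lists and the genes called between CPTH2 and Garcinol. A gene picked by this rule is not reported here. Members and lists were chosen with earlier results of these data known, and 2 further lists and the Rhox, Fthl17, Gata6, Gata4 and Etv5 values after the values were seen. Positions came from GENCODE M21, where 97.1% of symbols were found. The fit was tested on simulated data. Alternatives were a pseudocount of 10, no low-value filter, no replicate block, fits of 6 or all 22 libraries, median-ratio rescaling, genes above 0 alone, and leaving out each library.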

Additional observations from a re-analysis of the deposited data

Results flagged for a closer look

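Among 109 genes of the text, 7 had 1 inhibitor library apart from the other 3 beyond Dixon's 95% critical value for 4 libraries, where chance flags about 1 in 20. Lum stood at 346 in CPTH2 replicate 1 and at 0 in the other 3 inhibitor libraries. Ltbp3 had 258 in CPTH2 replicate 1 against 179 to 188, and Hdac1 had 9729 in Garcinol replicate 2 against 8477 to 8636. Dab2 had 42 in Garcinol replicate 2 against 28 to 30, and Cdx2 had 8 there against 2 to 3. Hnf4a had 8 in CPTH2 replicate 2 against 17 to 18, and Tacr3 had 1 in Garcinol replicate 1 against 2 in the others.

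The difference from Valproate was unequal for the 4 genes called between CPTH2 and Garcinol in the test of that difference itself. Vmn2r9 had 472 and 779 with CPTH2, 5 and 6 with Garcinol, 4 and 6 with Valproate and 7 and 7 in NC, a log2 difference of 6.55 (adjusted p = 1.51e-06 by limma). Olfr901 had 25 and 39 with CPTH2, 459 and 596 with Garcinol, 570 and 642 with Valproate, and 842 and 36 in NC (-4.02, adjusted p = 1.51e-06). Gm19269 was listed at 0 in the CPTH2 and Valproate libraries, with 338 and 477 with Garcinol and 0 and 534 in NC, and the fitted difference of -8.65 depends on the pseudocount. A transcript known only by a clone name had 1 in each CPTH2, Valproate and NC library and 384 and 517 with Garcinol (-7.80, adjusted p = 0.00284 by limma). In Olfr901 and Gm19269 the NC libraries differed from each other as widely as the compounds did. These 4 genes were also called between Valproate and the pooled arm. They lost that call when only the 6 libraries were fitted with CPTH2 and Garcinol as 1 arm, but not with 3 group means. Olfr901 and Gm19269 also lost it in the fit of all 22 libraries.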

How the results depend on the processing

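The count of 1756 genes stayed within 1.5 times under all 14 alternatives, from 1259 with no replicate block to 1838 with no filter on low values. A like count does not mean the same genes. Of the 1756 genes, 1259 were also called with no replicate block, 1467 with a pseudocount of 10 and 1533 when only the libraries compared were fitted. The fits that left out a Valproate library kept the fewest of the 1756 genes, with other genes called in their place. Leaving out 1 library gave 1309 to 1637 calls for the pooled comparison, 1145 to 1542 for Valproate against CPTH2, 1187 to 1600 for Valproate against Garcinol and 4 to 16 for CPTH2 against Garcinol. Rises were 53.8% of the calls and 48.7% without Valproate replicate 1, and 58.9% with a pseudocount of 10. With no replicate block, Valproate against CPTH2 gave 977 calls and Valproate against Garcinol 1034, all of them also called with the block. CPTH2 against Garcinol gave 20 calls when only the libraries compared were fitted and 2 in the fit of all 22 libraries. The cause was not tested. Single genes changed sign, both far from the threshold: H1f0 (0.0087 without Valproate replicate 1, and from -0.49 to 0.0087 over the left-out libraries) and Ep300 (-0.11 without Valproate replicate 2, from -0.11 to 0.24). Of 113 named genes, 30 lost their call with no replicate block, 32 without Valproate replicate 1, 25 without Valproate replicate 2, and at most 16 under any other alternative. The 113 include the 10 single genes, none of which was called, so these had no call to lose. With 2 replicate numbers the block rests on few libraries, and a call lost without it does not show a weaker effect. Of the 23 list medians, 17 kept their sign throughout. Depth is unknown, so no detection limit was given for genes listed at 0.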

Other observations

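Smaller families outside the lists, chosen after their values were seen, differed between the arms as well. Of 10 tested keratin genes 4 fell (40%) and 1 rose (10%), beside 4.71% and 5.47% of all tested genes. Krt42 had 197 and 481 with Valproate, 2004 and 1422 with CPTH2, 2061 and 1413 with Garcinol and 1114 and 1653 in NC (log2 difference -2.46, SE 0.40, adjusted p = 0.000731 by limma). Krt13 and Krt16, both of layered epithelia, had 0 to 7 with Valproate and 12 to 54 in the inhibitor arm. Of 8 genes of the Oas family, antiviral enzymes that sense double-stranded RNA, 3 rose from low values (37.5%). Oas1e had 12 and 20 with Valproate and 1 to 2 in the inhibitor arm, and Oas1d 45 and 55 against 19 to 22 (1.21). Oasl1, a related gene, went the other way, with 63 and 120 against 185 to 276 (-1.37), and Oasl2 had 31 and 80 against 9 to 13 (2.07), with 45 and 7 in NC. Of 9 Nlrp genes 3 rose (33.3%). Beside Nlrp4c, Nlrp14, which is expressed in oocytes, had 252 and 241 with Valproate and 91 to 129 in the inhibitor arm (1.16, SE 0.17, adjusted p = 0.000363 by limma). Nlrp3, the inflammasome sensor, had 21 and 71 against 1 to 23.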
